A study of Mus musculus with 2 samples.

Results

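The immediate early and stress transcription response was examined in mouse heart as a set of 40 genes listed by symbol. All transcript models that the deposited tables give to a listed symbol were summed to a read count per gene. Of the 15410 annotated mouse genes with reads in either library, 37 were members of the set, and 3 members (Fosb, Egr3 and Gdf15) had no read. The tissue was male heart of B6CASTF1/J, a hybrid strain bred from C57BL/6J and CAST/EiJ, at 18 to 20 months of age. RNA was sequenced as long reads in 2 libraries, replicate 2 and replicate 1, each from 2 µg of RNA. Both are given as biological replicates under the same donor identifier, and no treatment, genotype or age was contrasted. The comparison of replicate 2 with replicate 1 therefore measures the spread between these samples, which may be technical. Replicate 2 held 1003999 mouse reads and replicate 1 held 688861. Levels are given in CPM, mouse reads scaled to a library total of 1e6, and a count of 0 allows up to 2.99 CPM in replicate 2 against 4.36 CPM in replicate 1 (3 reads). Intervals are 95% intervals, and intervals and these limits cover counting error only.

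Immediate early genes are transcribed within minutes of a stimulus without new protein synthesis, because kinases such as ERK, p38 and JNK act on factors already bound at their promoters. Many encode transcription factors, among them the Fos and Jun proteins that pair to form AP-1, and others encode phosphatases and inhibitors that end the signal. The integrated stress response is a second arm, in which phosphorylation of the initiation factor eIF2 favours translation of Atf4 mRNA, and ATF4 in turn activates genes such as Ddit3. In heart muscle, stretch, pressure overload and adrenergic stimulation are known to induce Fos, Jun, Egr1 and Myc, while Klf15 is known as a constitutively expressed repressor of hypertrophic growth and regulator of metabolism.

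The set as a whole was a small part of the heart transcriptome and was carried by few genes. Its 40 members took 1464 reads in replicate 2 and 1486 reads in replicate 1, or 0.146% and 0.216% of mouse reads. The summed level was 1458 CPM in replicate 2 against 2157 CPM in replicate 1, a mean of 1808 ± 494 CPM (SD, n = 2). The 4 members with the highest mean level, Jund, Cebpb, Klf15 and Sesn1, held 55.3% of the members' reads in replicate 2 and 64.1% in replicate 1. These 4 averaged 100 CPM or more, 20 members averaged 10 to 100 CPM and 16 averaged under 10 CPM. Reads were found in both libraries for 33 members. In tissue RNA, fewer cells of a type and less RNA per cell cannot be told apart.

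A long read stands for 1 cDNA molecule, so CPM is not divided by length here. Longer molecules can be read less completely, and division by length does not correct for that. The order per kilobase of the main annotated transcript is given only as a second measure. By mean CPM the order was Jund, Cebpb, Klf15, Sesn1, Dusp1, Mcl1, Nfkbia, Btg1, Ddit3 and Ier2. By mean CPM per kilobase the first 5 were the same, with Jund at 269, Cebpb at 243, Klf15 at 61.8, Sesn1 at 51.8 and Dusp1 at 44.9 CPM per kilobase. In 34 of the 36 neighbouring pairs of the order by mean CPM, the values of both genes in the 2 libraries overlapped. The ranges were apart between Cebpb and Klf15 and between Dusp1 and Mcl1.

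**Figure D1:**
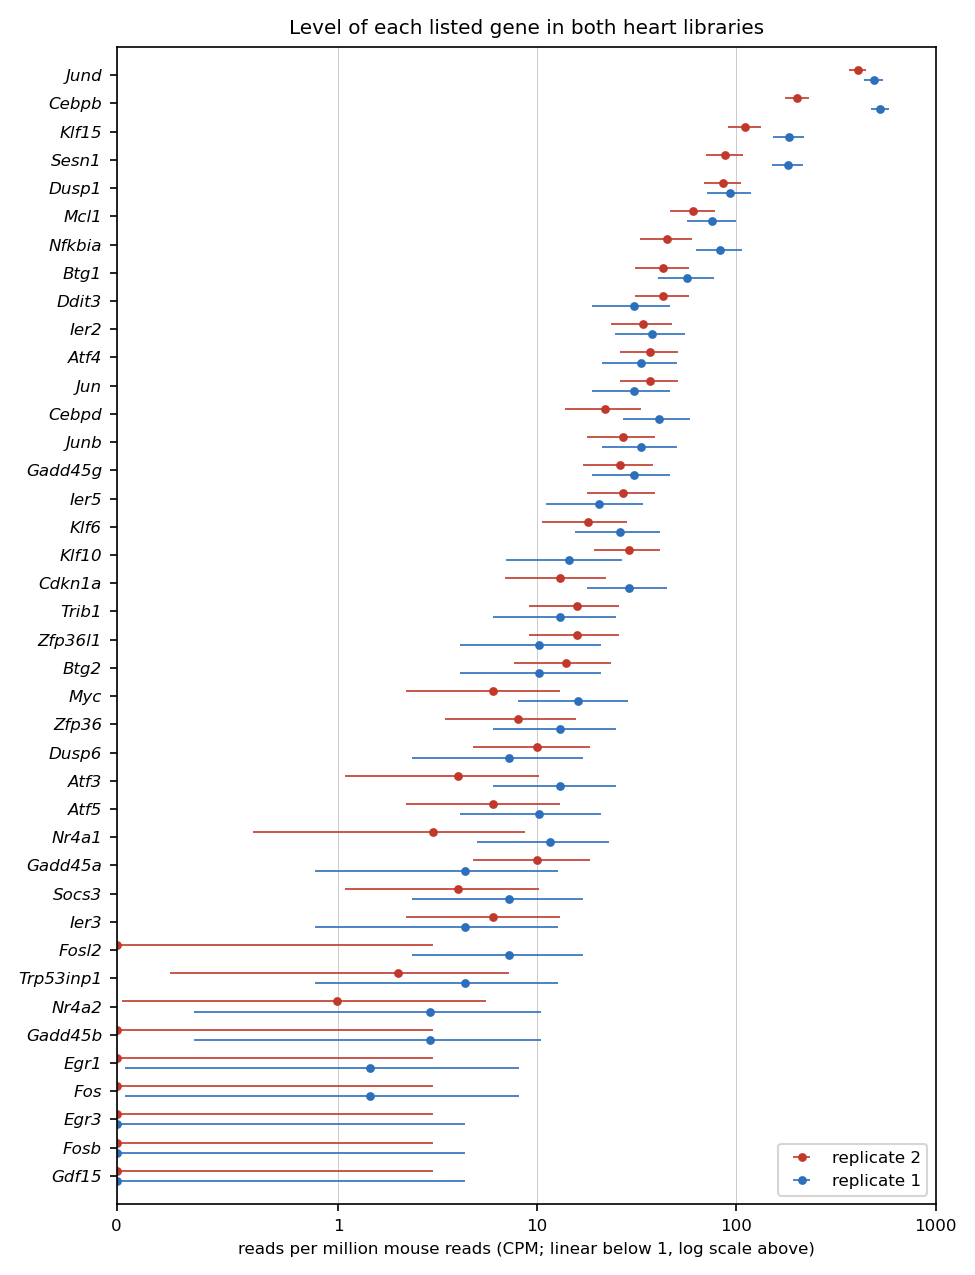
Level of each of the 40 members in CPM (the axis is linear below 1 and logarithmic above), with replicate 2 above replicate 1 and 95% Poisson intervals for counting error; at a count of 0 the bar reaches the limit of 3 reads. Jund and Cebpb stand at the top in both libraries, and Egr3, Fosb and Gdf15 are at 0 in both.

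Among the AP-1 subunits, Jund was abundant and the Fos members were at or near 0. Jund, the Jun protein that most resting cells hold, had 407 CPM in replicate 2 against 489 CPM in replicate 1 (409 and 337 reads). Jun had 36.9 CPM in replicate 2 against 30.5 CPM in replicate 1, and Junb had 26.9 CPM in replicate 2 against 33.4 CPM in replicate 1. Jund and Junb had lower values and Jun a higher value in replicate 2, and none of the 3 was called. Fos, the Jun partner and textbook immediate early gene, had 0 reads in replicate 2 and 1 read in replicate 1. Fosl2, another Fos family partner, had 0 reads in replicate 2 and 5 in replicate 1, and Fosb had none in either. All reads of Fos and Fosl2 lay on unspliced models within the gene. The AP-1 members together had 471 CPM in replicate 2 against 562 CPM in replicate 1. Junb lies opposite Prdx2, which had 722 reads in replicate 2 and 512 in replicate 1, and a mix-up of strand between the pair was not tested.

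Both C/EBP factors had lower values in replicate 2. Cebpb, a leucine zipper factor of inflammatory and metabolic gene control, lies on chromosome 2 from 167688915 to 167690418 (mm10). It had 202 reads or 201 CPM in replicate 2 and 364 reads or 528 CPM in replicate 1. Its level in replicate 2 was 0.381 times that in replicate 1. Cebpd, its relative induced in acute inflammation, had 21.9 CPM in replicate 2 against 40.6 CPM in replicate 1 (22 and 28 reads).

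Klf15 was the highest of the Kruppel-like zinc finger factors, with 111 CPM in replicate 2 against 183 CPM in replicate 1 (111 and 126 reads; chromosome 6, 90462576 to 90475238). Klf10, known as a TGF-beta inducible gene, had 28.9 CPM in replicate 2 against 14.5 CPM in replicate 1. Klf6, an early response factor of injured tissue, had 17.9 CPM in replicate 2 against 26.1 CPM in replicate 1. Klf15 and Klf6 were thus lower and Klf10 higher in replicate 2 by value, on 10 to 29 reads for Klf10 and 18 reads per library for Klf6.

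The zinc finger genes and nuclear receptors that respond fastest to stimulation were low. Egr1 had 0 reads in replicate 2 and 1 in replicate 1, and Egr3 had none. Nr4a1, an orphan nuclear receptor, had 3 reads in replicate 2 and 8 in replicate 1, and Nr4a2 had 1 read in replicate 2 and 2 in replicate 1. Of the Nr4a2 reads, 1 in each library was on an unspliced model outside the exons of its main transcript. Myc, the growth-promoting helix-loop-helix factor, had 6 reads in replicate 2 and 11 in replicate 1. These 5 genes together had 9.96 CPM in replicate 2 against 31.9 CPM in replicate 1, on 10 and 22 reads.

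Feedback inhibitors of signalling were present at moderate levels and summed to 160 CPM in replicate 2 against 203 CPM in replicate 1. Dusp1, the phosphatase that switches off p38 and JNK, had 85.7 CPM in replicate 2 against 92.9 CPM in replicate 1 (86 and 64 reads). Nfkbia, which encodes the inhibitor that holds NF-kB in the cytoplasm, had 44.8 CPM in replicate 2 against 82.7 CPM in replicate 1 (45 and 57 reads). Both had lower values in replicate 2, and neither was called. Trib1, a pseudokinase that directs C/EBP proteins to degradation, had 15.9 CPM in replicate 2 against 13.1 CPM in replicate 1. Dusp6, the ERK phosphatase, had 10 reads in replicate 2 and 5 in replicate 1, and Socs3, the inhibitor of STAT3 signalling, had 4 and 5.

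Among the genes of growth arrest and survival, Sesn1 was highest. It is a p53 and FOXO target that restrains mTORC1, lies on chromosome 10 from 41809935 to 41908424 and had 87.6 CPM in replicate 2 against 181 CPM in replicate 1 (88 and 125 reads). Mcl1, a survival protein of the Bcl2 family that cardiomyocytes need, had 60.8 CPM in replicate 2 against 75.5 CPM in replicate 1. Gadd45g had 25.9 CPM in replicate 2 against 30.5 CPM in replicate 1, the highest level of the 3 Gadd45 stress sensors. Gadd45a had 10 reads in replicate 2 and 3 in replicate 1, and Gadd45b had 0 and 2. Cdkn1a, the cell cycle inhibitor p21, had 12.9 CPM in replicate 2 against 29.0 CPM in replicate 1, and Trp53inp1, a p53 cofactor, had 2 and 3 reads.

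The RNA decay factors summed to 85.3 ± 6.59 CPM (SD, n = 2). Btg1, which recruits the CCR4-NOT deadenylase, had 42.8 CPM in replicate 2 against 56.6 CPM in replicate 1. Its relative Btg2 had 14 reads in replicate 2 and 7 in replicate 1. Zfp36l1, which binds AU-rich elements, had 16 reads in replicate 2 and 7 in replicate 1, and Zfp36 (tristetraprolin), of the same family, had 8 and 9. Zfp36l1 lies opposite Gm26669, which is identical to it over 1491 nt and had 20 reads in replicate 2 and 13 in replicate 1, so the counts of this gene are uncertain.

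The integrated stress response members had nearly the same sum in both libraries, 89.6 CPM in replicate 2 against 87.1 CPM in replicate 1. Ddit3 (CHOP), a stress factor that promotes cell death, had 42.8 CPM in replicate 2 against 30.5 CPM in replicate 1. Its symbol stands for 2 annotated genes at the same place, and it lies opposite Mars, with 60 reads in replicate 2 and 49 in replicate 1, so its count is uncertain. Atf4 had 36.9 CPM in replicate 2 against 33.4 CPM in replicate 1. Atf5 had 6 reads in replicate 2 and 7 in replicate 1, Atf3 had 4 and 9, and the secreted stress cytokine Gdf15 had none. No read of Atf5 lay on a known transcript. Atf5 also lies opposite Il4i1 and Nup62, which together had 13 reads in replicate 2 and 15 in replicate 1, so its count is uncertain. Of the immediate early response genes, Ier2 had 33.9 CPM in replicate 2 against 37.7 CPM in replicate 1, Ier5 had 26.9 and 20.3 CPM, and Ier3 had 6 and 3 reads.

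The question of how far the libraries differed was put to each gene with at least 10 reads in both together, by an exact binomial test (two-sided) that took the mouse reads of each library as the expected split, with p-values adjusted by Benjamini-Hochberg over 8836 genes. Of 29 members tested, 3 were lower in replicate 2 (Cebpb, Sesn1 and Klf15), where 2.00% of all genes tested were lower. No member was higher, where 1.36% of all genes were. The other 8 members with reads were under the minimum. Tested without it, among 37 members, none of these 8 was called, on at most 9 reads each. With so few reads even a wholly one-sided split can miss the threshold, so this does not show whether they differed. Of the 29 members, 8 had an unadjusted p under 0.05, namely the 3 called and Jund, Nfkbia, Cebpd, Cdkn1a and Atf3, and each had a lower level in replicate 2. Over all genes tested, 7.50% had an unadjusted p under 0.05 and a lower level in replicate 2, and 4.50% one and a higher level.

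Cebpb had a log2 ratio of replicate 2 over replicate 1 of -1.39 on log2(CPM + 1), and its interval without the added 1 was -1.65 to -1.14 (adjusted p = 8.37e-27, exact binomial test). Sesn1 had a log2 ratio of -1.04 (-1.46 to -0.64; adjusted p = 1.18e-05, exact binomial test), and Klf15 one of -0.72 (-1.11 to -0.35; adjusted p = 0.00562, exact binomial test). Nfkbia stood next at -0.87 (-1.48 to -0.30) and missed the threshold of 0.05 (adjusted p = 0.0637, exact binomial test). It passed when the libraries were scaled by spike-in reads or when only known transcripts were counted, so 4 members were lower under these settings. Jund, with the most reads, had a ratio of -0.26 (-0.48 to -0.05; adjusted p = 0.212, exact binomial test).

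A negative binomial exact test (edgeR), whose common dispersion of 0.0203 takes in the spread between the libraries over all genes, those that differ included, left Cebpb as the only member called (adjusted p = 0.00761). By this test 0.170% of all genes were lower in replicate 2. Sesn1 (adjusted p = 0.526) and Klf15 (adjusted p = 1) were not called by this exact test. The differences of Sesn1 and Klf15 thus passed against counting error and did not pass once the spread over all genes was taken in.

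**Figure D2:**
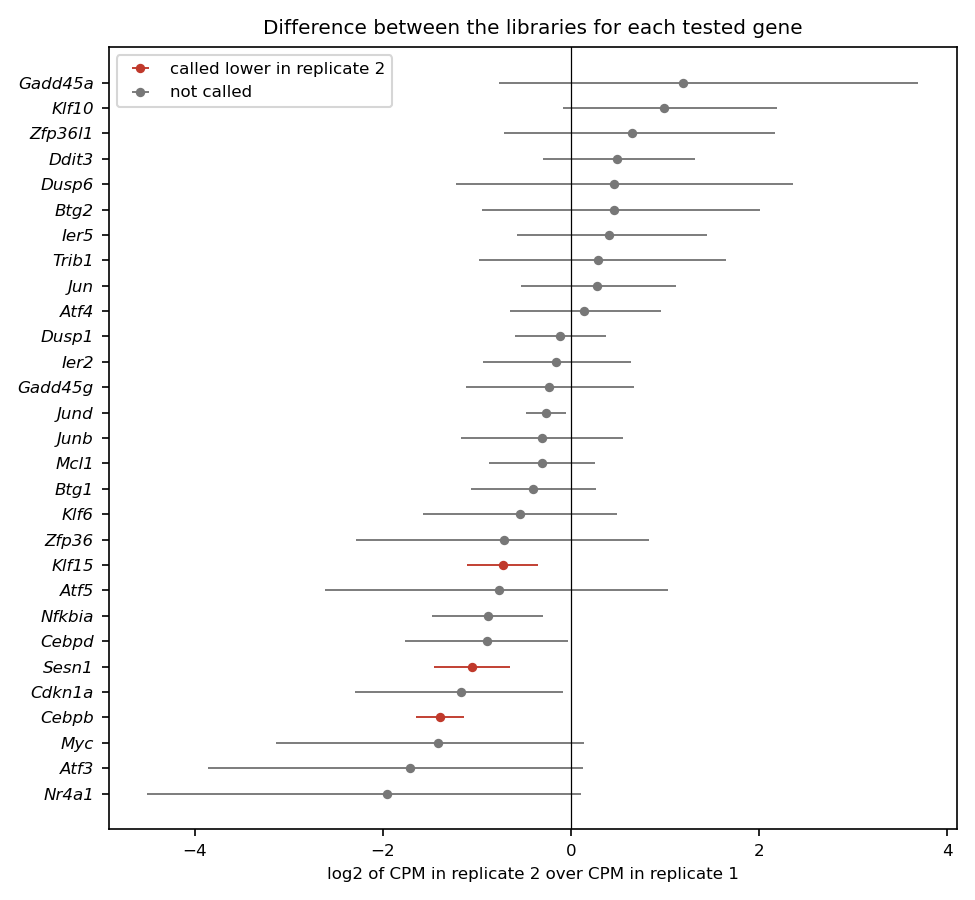
Log2 of the CPM in replicate 2 over that in replicate 1, without an added 1, for the 29 members with at least 10 reads; bars are 95% intervals for counting error, and members called lower by the exact binomial test are in red. Cebpb, Sesn1 and Klf15 are the 3 called, and low counts make the intervals of Nr4a1, Atf3 and Gadd45a wide.

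Across the 29 tested members the median log2 ratio was -0.30, beside -0.06 for all 8836 genes, and 65.5% of members and 55.2% of all genes had ratios under 0. With trimmed-mean scaling (TMM) the median of all genes moved to 0.003 and that of the members to -0.24, and the same 3 members were called lower. Scaling set the balance of calls over all genes, with 120 higher and 177 lower by mouse reads, 168 and 124 by TMM and 107 and 217 by spike-in reads.

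Of 8 lists of related pathway genes, which were chosen with earlier results of the data known and are given as counts, the inducible heat shock list had the largest share of genes lower in replicate 2. Over all genes 2.00% were lower and 1.36% higher by the exact binomial test, and 0.170% lower and 0.113% higher by the negative binomial exact test. Of 13 tested heat shock genes 8 were lower (Dnaja1, Hsp90aa1, Hspa1a, Hspa1b, Hspa8, Hspb1, Hspd1 and Hsph1) and none higher, and the negative binomial exact test called Hspa1a and Hspa1b. These encode nearly the same inducible HSP70 chaperone, so their reads may be split between them, and each had 5.98 CPM in replicate 2, against 59.5 CPM (Hspa1a) and 72.6 CPM (Hspa1b) in replicate 1. The constitutive chaperone Hspa8 was the highest of the list, with 1464 CPM in replicate 2 against 2234 CPM in replicate 1, and Hspb8, next in level, had 905 against 1029 CPM and was not called. The list summed to 3948 CPM in replicate 2 against 5513 CPM in replicate 1.

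In the other 7 lists no gene was called by the negative binomial exact test, so their calls are against counting error only. Of 20 tested other immediate early genes 2 were lower in replicate 2 and none higher. Klf9, a glucocorticoid-responsive zinc finger gene, had 113 CPM in replicate 2 against 176 CPM in replicate 1, and Ccn2, a matrix growth regulator, had 62.7 against 113 CPM. Ccn1, its relative, had 70.7 CPM in replicate 2 against 62.4 CPM in replicate 1 and was not called. Egr2, Egr4, Fosl1, Npas4, Nr4a3 and Dusp2 of the 36 listed had no read, as was the case for Fosb and Egr3 among the members. Of 15 upstream kinases and factors of the serum response, 2 were lower (Mapkapk2 and Map2k2). Of 14 genes of the integrated stress and unfolded protein response, 2 were lower (Herpud1 and Pdia4), and the chaperone Hspa5, the highest, was not called at 1024 CPM in replicate 2 against 1116 CPM in replicate 1.

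None was called of 10 other AP-1 and CREB family factors, led by Nfe2l1 (277 ± 10.3 CPM, SD, n = 2), Creb3 and Nfe2l2, nor of 10 p53 targets and regulators, led by Ccng1 (373 ± 53.1 CPM), Perp and Aen. Of 12 genes of NF-kB and STAT3 feedback, Pim3 was lower and Stat3 and Il6st were not called. Of 11 glucocorticoid targets, Pdk4, which inhibits pyruvate dehydrogenase, was higher, with 534 CPM in replicate 2 against 276 CPM in replicate 1. Tsc22d3 (GILZ), with 118 CPM in replicate 2 against 254 CPM in replicate 1, and Zbtb16 were lower, so the calls in this list ran both ways.

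Levels of some cell type markers also differed between the libraries by the exact binomial test, and of these Car3 and Cfd alone were called by the negative binomial exact test too. The adipocyte markers summed to 164 CPM in replicate 2 against 341 CPM in replicate 1, with 2 of 3 tested lower (Car3 and Cfd) and Lep at 0 in both. Car3 had 28.9 CPM in replicate 2 against 192 CPM in replicate 1. Cidea went the other way, with 126 CPM in replicate 2 against 97.3 CPM in replicate 1, and was not called. Adipoq had 2 reads in replicate 2 and 5 in replicate 1, and Plin1 had 0 and 2. The atrial markers summed to 3195 CPM in replicate 2 against 4243 CPM in replicate 1, with 3 of 5 lower (Nppa, Myl7 and Stard10). The cardiomyocyte markers, which define the labelled tissue, were all present and summed to 42783 CPM in replicate 2 against 40895 CPM in replicate 1, with 2 of 8 higher and 2 lower. Fibroblast markers summed to 603 and 774 CPM in replicates 2 and 1 (1 of 7 lower, Col3a1), endothelial to 850 and 624 CPM (1 of 8 higher, Fabp4), macrophage to 255 and 287 CPM and mural to 404 and 375 CPM (none called in the last pair). Erythroid markers summed to 6996 CPM in replicate 2 against 7684 CPM in replicate 1 (1 of 5 lower, Hba-a1), and mesothelial, neutrophil and platelet, and Schwann and neuron markers to 46.8 against 40.6, 50.8 against 46.5 and 2.99 against 4.36 CPM; 3, 1 and 0 genes of these lists had reads enough for the test, and none was called. Cd3e, Cd8a, Nkg7 and Trbc2 of the 7 lymphocyte markers and all 5 skeletal muscle markers were at 0. The part of these cell types in the lower Cebpb, Sesn1 and Klf15 of replicate 2 was not tested.

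Long reads also show which transcript each gene used. Reads of the members lay on known transcripts for 91.7% (90.1 to 93.0) in replicate 2 and 94.2% (92.9 to 95.3) in replicate 1 (Clopper-Pearson intervals). In the reads of all other annotated genes these shares were 72.3% and 74.7%. Incomplete splice matches, which hold part of a known exon chain, took 2.05% of the members' reads in replicate 2 and 1.21% in replicate 1, and 14.9% and 12.6% in other genes. Genomic models, which follow no known exon chain, took 5.05% in replicate 2 and 3.70% in replicate 1, and 6.38% and 5.82% in other genes. A transcript of 1 exon cannot give an incomplete splice match in the usual sense. The 8 members with a main transcript of 1 exon (Cebpb, Cebpd, Ier2, Ier5, Jun, Junb, Jund and Zfp36) held 52.3% of the members' reads in replicate 2 and 55.3% in replicate 1. Of these, Zfp36 also had reads on Zfp36-201, of 2 exons (3 in replicate 2 and 5 in replicate 1). Among members with 2 or more exons and at least 20 reads, the median known share was 90.6% over 15 members, beside 76.2% over 6424 genes. Exon number was not matched here. The median main transcript had 3 exons over all 40 members and 9 over the 8436 protein-coding genes with at least 10 reads. The part of exon number in the gap was not tested.

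**Figure D3:**
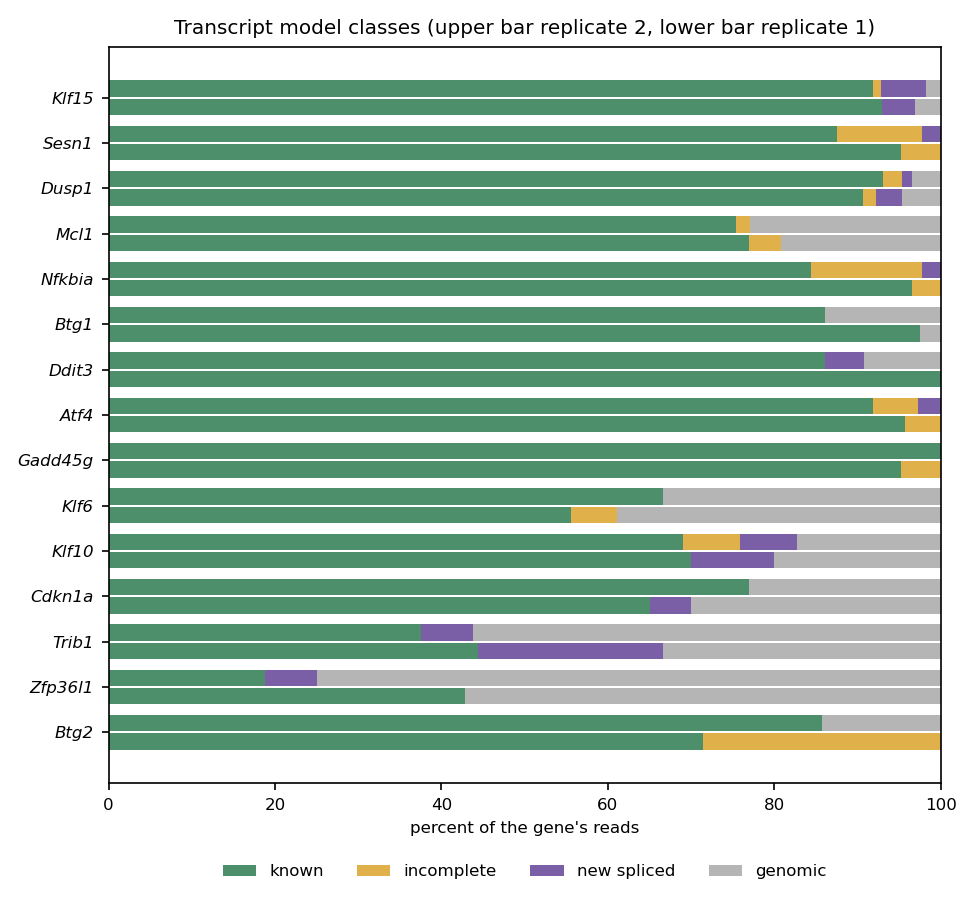
Percent of each gene's reads on known, incomplete, new spliced and genomic models for the 15 members with at least 20 reads and a main transcript of 2 or more exons; the upper bar is replicate 2 and the lower bar replicate 1. Known transcripts take most reads of all but Trib1 and Zfp36l1. Genomic models take the larger part of Trib1 in replicate 2 and of Zfp36l1 in both libraries.

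Known transcripts were mostly a single isoform per gene. Dusp1-202 held 80 of 86 reads in replicate 2 and 58 of 64 in replicate 1, Klf15-201 held 98 of 111 and 111 of 126, and Btg1-201 held 37 of 43 and 38 of 39. Sesn1 used the long transcript Sesn1-202 beside Sesn1-201, with 10 reads on Sesn1-202 in replicate 2 and 14 in replicate 1 against 67 and 105 on Sesn1-201. Ddit3 was divided between Ddit3-201, with 22 reads in replicate 2 and 9 in replicate 1, and the shorter Ddit3-203, with 15 and 12. Atf4 had 25 reads in replicate 2 and 20 in replicate 1 on Atf4-201 and 9 and 1 on Atf4-203, which the annotation gives as a retained intron. Jund, Cebpb, Cebpd, Jun, Junb, Ier2 and Ier5 had every read on a transcript of 1 exon.

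Fisher's exact test (two-sided) compared the share of the top transcript between the libraries for 9 members with at least 20 reads in each, with Benjamini-Hochberg adjustment over 3938 genes. No member was called, where 2.01% of all genes were, and with the minimum lowered to 10 reads none of 12 was. Without incomplete and genomic models none of 7 was called. An unadjusted p under 0.05 was found for 1 member, Nfkbia, in which Nfkbia-201 held 84.4% of reads in replicate 2 and 96.5% in replicate 1 (p = 0.0413, adjusted p = 0.565, Fisher's exact test). The absence of calls does not show that isoform use was the same, since gene counts of 21 to 126 reads give wide intervals.

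Reads outside known transcripts numbered 122 in replicate 2 and 86 in replicate 1, and most were unspliced. Positions given here are those of the models, not of single reads. In replicate 2, 88 reads of members were on single-exon models outside known transcripts. Of these, 69 were on models ending within 50 nt of an annotated 3' end and 82 on models wholly in annotated exons. In replicate 1 these were 53 and 61 of 63. Some models are too short to be the extent of their reads. One of Trib1 in replicate 1 has 1 nt (3 reads), and one of Klf10 has 4 nt (3 reads in replicate 2 and 1 in replicate 1). Of all reads of members outside known transcripts, 6 in replicate 2 and 1 in replicate 1 were on models that run through an intron. The single-exon genomic models held 14 reads of Mcl1 in replicate 2 and 10 in replicate 1, 9 and 3 reads of Trib1, 12 and 4 of Zfp36l1, and 6 and 7 of Klf6. Not all of these models ended near an annotated 3' end. Those of Trib1 ended 557 nt away in replicate 2 and 556 nt away in replicate 1. A model with 4 of the 10 reads of Mcl1 in replicate 1 ended 1113 nt away. For Zfp36l1 and Trib1 the genomic models held more reads than the known transcripts did in replicate 2, 3 for Zfp36l1-201 and 6 for Trib1-201. In replicate 1 this was so for Zfp36l1, with 3 reads on Zfp36l1-201, and not for Trib1, with 4 reads on Trib1-201.

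Klf15 had 1 new spliced form in both libraries, with 5 reads in replicate 2 and 3 in replicate 1; it was chosen after its values were seen. It joined the first exons of the gene on chromosome 6 (90462576 to 90462725 and 90466420 to 90467523) to an exon from 90476682 to 90479686 (mm10, plus strand). That exon lies 1444 nt beyond the annotated end of Klf15 and overlaps Gm44421, an annotated gene on the same strand.

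Beyond their selection, most members have a short gene span. Their median gene span was 4396 nt, beside 22702.5 nt for 8436 protein-coding genes with at least 10 reads. The median main transcript had 3 exons and 2471 nt, beside 9 exons and 2705 nt. A main transcript of 1 exon was found for 8 of 40 members (20%) and for 2.03% of the protein-coding genes, and a span under 10 kb for 80% and 25.3%. Among the 29 members with at least 10 reads these shares were 27.6% and 82.8%. Over all 22015 annotated protein-coding genes, with reads or not, they were 7.08% and 35.6%. Median transcript lengths thus lay close together, while the medians of gene span and exon count were lower in the members. Some members were long, among them Sesn1 at 98490 nt, Dusp1 at 56539 nt and Klf15 at 12663 nt.

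Some members hold an AU-rich element in the 3' untranslated region (UTR), the kind of site that Zfp36 and Zfp36l1 bind and through which many immediate early mRNAs are degraded. The nonamer TTATTTATT on the transcript strand was found in the main transcript's 3' UTR of 8 of 40 members, or 20% (Cebpd, Dusp1, Fos, Fosl2, Nfkbia, Trp53inp1, Zfp36 and Zfp36l1), and of 6.02% of 8352 protein-coding genes tested. Of the 29 members tested 17.2% held it, and of 20746 annotated protein-coding genes 6.86%. In the last 300 nt of UTRs that are at least that long, 10.8% of 37 members and 1.98% of 6659 genes held it. The core pentamer ATTTA, which the nonamer contains, had a median density of 2.27 per kilobase in members and 1.16 in the genes tested, and a density over all their UTRs together of 2.38 and 1.79 per kilobase. Atf4, Cebpb, Ddit3, Gadd45b, Gadd45g, Ier2 and Trib1 had no pentamer. The sites below, with the nonamer in capitals, are those of the 4 members that hold it in this window and of Zfp36l1. They were read 5' to 3' on the strand of the gene from the mm10 sequence.
Dusp1 (chr17:26505870-26505898, minus strand): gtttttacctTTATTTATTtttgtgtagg
Fos (chr12:85477103-85477131, plus strand): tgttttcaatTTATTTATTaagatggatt
Nfkbia (chr12:55489608-55489636, minus strand): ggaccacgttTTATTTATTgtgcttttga
Zfp36 (chr7:28376951-28376979, minus strand): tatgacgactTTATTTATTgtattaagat
Zfp36l1 (chr12:80108167-80108195, minus strand): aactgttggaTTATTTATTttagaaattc

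Where reads lay on models outside known transcripts, the models, not the single reads, could be checked for the site. In Nfkbia, 4 reads in replicate 2 were on models that end short of it and 3 reads were on models that include it. In replicate 1 both reads were on models that include it. Models with the site held all 6 such reads of Dusp1 in each library, 12 of 13 reads of Zfp36l1 in replicate 2 and all 4 in replicate 1. The 1 read of Trp53inp1 in replicate 2 was on a model without it.

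**Figure D4:**
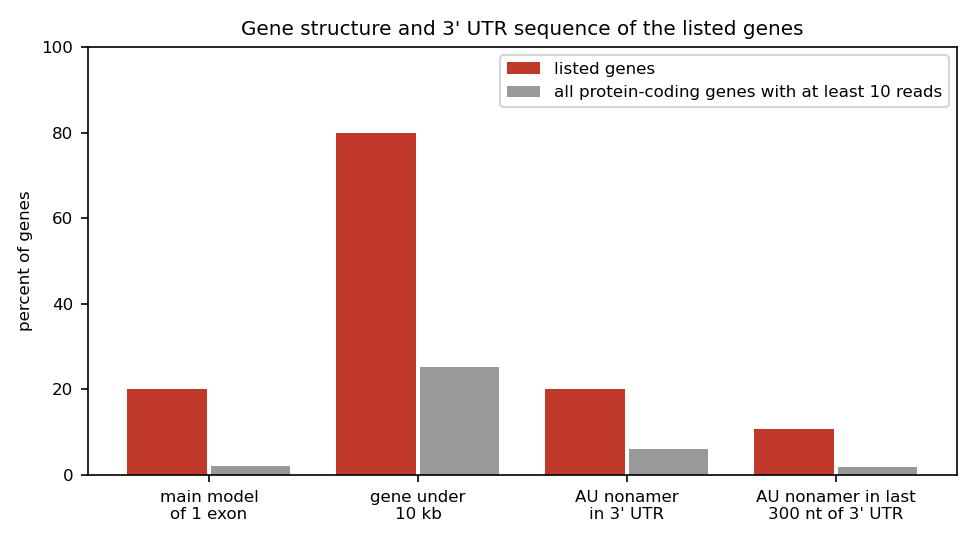
Percent of genes with a main transcript of 1 exon, a span under 10 kb, the AU-rich nonamer in the 3' UTR and the nonamer in its last 300 nt, for the members (left bars, red) and for all protein-coding genes with at least 10 reads (right bars, grey). The members have 20%, 80%, 20% and 10.8%, and all genes 2.03%, 25.3%, 6.02% and 1.98%.

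Promoters from 250 bases before to 50 after the start were given by RefSeq (GRCm38.p6) for 32 of the 40 members and were searched on both strands. The first promoter given for each symbol was used. The 27025 promoters compared with were not limited to protein-coding genes, unlike the sets used for gene structure and 3' UTRs. The cAMP response element TGACGTCA was found for 2 members (6.25%, Btg2 and Dusp1) and in 1.88% of 27025 promoters, and its TGACG part, which the full element contains, for 13 members (40.6%) and in 21.02%. TATAAA was found for 9 members (28.1%) and in 14.2%, and the GC box GGGCGG for 23 members (71.9%) and in 35.9%. The EGR site GCGNGGGCG was found for 10 members (31.3%) and in 5.55%, the AP-1 site TGANTCA for 2 (6.25%) and in 7.93%, and the serum response CArG box for 1 (Zfp36; 3.13%) and in 1.57%. A match is a description of the sequence, the base composition of the sets was not matched, and no binding was measured. Sites more than 250 bases before the start were outside the search, so a missing match does not show that a gene lacks the site. The promoters of Cebpb, the member called by both tests, of Dusp1, which holds the full element, and of Fos, the reference immediate early gene with 0 and 1 reads, show the arrangement. Capitals mark TGACG, its reverse CGTCA, TGACGTCA and TATAAA.
Cebpb (chr2:167688665-167688964, plus strand): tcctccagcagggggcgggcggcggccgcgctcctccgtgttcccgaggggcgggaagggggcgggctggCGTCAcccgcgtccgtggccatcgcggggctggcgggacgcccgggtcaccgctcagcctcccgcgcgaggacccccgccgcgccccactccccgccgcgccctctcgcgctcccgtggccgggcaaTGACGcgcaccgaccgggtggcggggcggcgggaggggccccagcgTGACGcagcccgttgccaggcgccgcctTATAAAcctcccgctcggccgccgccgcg
Dusp1 (chr17:26508423-26508722, minus strand): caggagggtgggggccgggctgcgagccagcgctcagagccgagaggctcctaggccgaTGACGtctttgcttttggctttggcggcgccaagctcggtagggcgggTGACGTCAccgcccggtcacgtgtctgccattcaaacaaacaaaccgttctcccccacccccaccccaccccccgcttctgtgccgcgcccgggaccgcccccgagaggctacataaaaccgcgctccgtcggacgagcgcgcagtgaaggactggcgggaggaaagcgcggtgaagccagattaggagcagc
Fos (chr12:85473640-85473939, plus strand): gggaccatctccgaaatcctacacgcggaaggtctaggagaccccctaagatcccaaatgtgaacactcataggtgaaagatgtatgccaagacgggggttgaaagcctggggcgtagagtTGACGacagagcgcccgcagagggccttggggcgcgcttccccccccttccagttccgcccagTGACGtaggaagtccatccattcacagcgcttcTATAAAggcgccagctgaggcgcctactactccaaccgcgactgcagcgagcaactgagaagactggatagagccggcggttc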

How the data were processed

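Long-read RNA libraries of 2 samples of 1 group were used as deposited. The authors deposited, per library, raw counts of reads on each transcript model together with the models' exons; per the file headers and labels, coordinates are in mm10 and known models follow GENCODE M21. Counts are whole numbers and not normalized, and no source used here names the mapping software or its settings. Depth was 1019974 reads in replicate 2 and 699529 in replicate 1, ERCC spike-ins included, and the spike-ins were left out of CPM (scale 1e6).

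Gene counts were summed over all models of a symbol, new spliced models were matched between libraries by intron chain, and log2 ratios added 1 CPM. Genes reaching 10 reads over both libraries were tested with an exact binomial test (threshold 0.05), and edgeR 4.0.16 (R 4.3.3) gave the TMM factors and the negative binomial test. DESeq2 1.42.0 gave size factors, and scipy 1.17.1 the binomial and Fisher tests. The 3 tests were also run on simulated data. Near-identical copies were sought with blastn 2.17.0 (at least 90% identity over 50% of the shorter sequence). Reads were treated as independent, so the binomial and Fisher tests measure a difference against counting error only. The members and lists were chosen with earlier results of these data known. Models are named where they hold at least 10% of a gene and 5 reads, and pathway lists by their called genes and up to 3 genes of the highest mean CPM; some items that the rule names are left out of the text.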

Additional observations from a re-analysis of the deposited data

How the results depend on the processing

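No paired analysis was possible because the 2 libraries form 1 group. Over 11 settings (scaling, count minimum, reads counted, thinning, threshold and test) 0 members were higher in replicate 2, and 3 to 4 were lower except by the negative binomial test, which called 1 (Cebpb). The members' summed level was 2372 CPM on known transcripts only, where the library total was limited to known transcripts too. That value is thus on another scale, and the members' reads were fewer under this setting. The summed level lay between 1458 and 2157 CPM when a replicate was left out. Reads in both libraries were found for 19 members at a minimum of 10 reads each, against 33 at 1 read. The known share was 90.5% without Jund and ranged from 91.7% to 94.2% when a replicate was left out. The ratio of Dusp6 turned to -0.20 on known transcripts and to -0.24 without genomic models, and that of Trib1 to -0.28 without genomic models; neither was called, and the cause was not tested. Depth limits the 8 members with reads but under 10 and the 3 without reads. None of these 8 was called when tested without a minimum, on too few reads for that to show whether they differed.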
